A study of Mus musculus with 61 samples.

Results

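The proteasome, its activators and its assembly factors were followed at the RNA level in the liver of 8 inbred mouse strains. Members were taken by symbol from the deposited gene table: Psma, Psmb, Psmc, Psmd, Psme, Psmf or Psmg followed by a number, with symbols marked as pseudogenes left out. This gave 49 of 18754 genes, and all 49 passed the filter on low counts that left 16165 genes for testing. They were 8 alpha and 7 beta genes of the 20S core, 6 ATPase and 11 non-ATPase genes of the 19S cap, 4 other activators and regulators, 7 assembly factors and 5 genes of the immunoproteasome. The remaining match, Psmc3ip, encodes a cofactor of meiotic recombination that is named for its binding to the ATPase subunit Psmc3. It is not a subunit and was kept out of the group counts, which leaves 43 members beside the 5 immunoproteasome genes.

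The 20S core is a barrel of alpha and beta rings, and the beta subunits Psmb5, Psmb6 and Psmb7 carry its chymotrypsin-like, caspase-like and trypsin-like activities. The 19S cap binds ubiquitin-tagged proteins, unfolds them with its ring of ATPases and feeds them into the core. Interferon-gamma induces Psmb8, Psmb9 and Psmb10, which take the places of Psmb5, Psmb6 and Psmb7 in newly built particles, and also Psme1 and Psme2, which form the PA28 activator. The resulting immunoproteasome is abundant in immune cells, and many of its peptides are loaded onto class I molecules.

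There were 8 libraries each of strain-129, NOD, NZO, PWK and WSB, 7 each of B6 and Cast, and 6 of AJ. The Diversity Outbred stock was bred from these strains. All were inbred, and Cast, PWK and WSB descend from wild-caught mice. Every group had been fed a diet high in fat and sugar, with 45% fat per the labels, so no group on another diet was at hand. The labels give no sex, age or batch and do not say that each library came from its own mouse, so p-values measure the spread between these 60 libraries.

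Depth was 19.98 to 69.2 M estimated reads per library (median 30.4 M), and 18S ribosomal RNA took 0.837 to 16.04% of them. CPM is a gene's reads per M reads of its library, with the library size scaled by TMM normalisation. The summed level of 7 hepatocyte markers was 21958 to 140615 CPM. The sum was 102 to 1035 CPM for 10 Kupffer cell and macrophage markers and 5.15 to 109.9 CPM for 12 lymphocyte markers. Each strain was set against the unweighted mean of the other 7 strains with edgeR's quasi-likelihood F test, and a gene is described as called where its Benjamini-Hochberg adjusted p was under 0.05. In bulk tissue, fewer cells of a type and less RNA per cell cannot be told apart. Libraries 5 and 6 of Cast stood apart: the 32 genes of the core and cap summed to 3483 and 2965 CPM in them, against 2067 to 2317 CPM in the other 5 Cast libraries. Counts of calls in Cast, and the Cast fold changes of the genes described, were therefore also computed without these libraries, an alternative chosen after seeing the data.

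The windows before the RefSeq starts of the 3 inducible catalytic genes, and of a pair of the constitutive genes they replace, are shown because the main contrast of the results lies between these genes. Each run is the 250 bases before the RefSeq gene start in GRCm38.p6, read 5′ to 3′ on the gene's own strand. The windows lie at chr17:34197945-34198194 (plus strand) for Psmb8, chr14:54617996-54618245 (minus strand) for Psmb5, chr17:34187331-34187580 (minus strand) for Psmb9, chr11:70525107-70525356 (plus strand) for Psmb6 and chr8:105938393-105938642 (minus strand) for Psmb10. The GENCODE spans of Psmb8 and Psmb9, given with their values, start further out than the RefSeq genes, so these windows lie inside those spans. Capitals mark matches to 4 motifs searched on both strands: TGACNNNGC (antioxidant response element core), the core of the interferon-stimulated response element, TTCNNNGAA (gamma-activated site) and CCAAT.
Psmb8: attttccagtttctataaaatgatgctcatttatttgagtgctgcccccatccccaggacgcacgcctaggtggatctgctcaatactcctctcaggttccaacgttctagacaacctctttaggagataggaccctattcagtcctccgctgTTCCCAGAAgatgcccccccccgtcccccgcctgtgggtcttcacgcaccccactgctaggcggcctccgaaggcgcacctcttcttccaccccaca
Psmb5: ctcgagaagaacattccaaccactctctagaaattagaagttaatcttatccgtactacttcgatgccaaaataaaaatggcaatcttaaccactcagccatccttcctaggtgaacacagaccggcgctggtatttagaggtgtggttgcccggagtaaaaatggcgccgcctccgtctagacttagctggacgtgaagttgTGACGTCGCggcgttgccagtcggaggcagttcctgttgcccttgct
Psmb9: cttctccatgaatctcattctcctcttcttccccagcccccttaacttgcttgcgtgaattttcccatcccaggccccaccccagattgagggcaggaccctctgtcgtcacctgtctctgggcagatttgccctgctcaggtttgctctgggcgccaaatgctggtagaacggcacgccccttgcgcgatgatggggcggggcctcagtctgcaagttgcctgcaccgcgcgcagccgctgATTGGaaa
Psmb6: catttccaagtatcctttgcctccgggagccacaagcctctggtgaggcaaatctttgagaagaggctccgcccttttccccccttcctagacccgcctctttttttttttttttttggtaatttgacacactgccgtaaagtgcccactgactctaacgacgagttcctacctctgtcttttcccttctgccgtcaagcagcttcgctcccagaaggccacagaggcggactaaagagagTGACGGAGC
Psmb10: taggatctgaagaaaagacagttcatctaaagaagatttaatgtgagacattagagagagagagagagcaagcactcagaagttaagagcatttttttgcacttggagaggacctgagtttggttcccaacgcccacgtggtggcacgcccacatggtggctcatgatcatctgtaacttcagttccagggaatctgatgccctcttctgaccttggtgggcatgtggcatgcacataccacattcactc

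The capitals show a match to the gamma-activated site in Psmb8, to the antioxidant response element core in Psmb5 and Psmb6, and to CCAAT on the other strand in Psmb9. None of the 4 motifs was found in the Psmb10 window. The 41 genes of the 49 with a promoter in the table, Psmc3ip among them, had 44 windows. Of these 44, 5 held TGACNNNGC (Psmb5, Psmb6, Psmc6, Psmd9 and Psmd12), against 10.2% of 32851 promoters. The core of the interferon-stimulated response element was found in 3 (Psmb3, Psmd4 and Psmd9), against 2.98% of all promoters. TTCNNNGAA was found in 2 (Psmb8 and Psmg1), against 7.02%, and CCAAT in 14, Psmc3ip among them, against 33.8%.

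Most proteasome genes differed among the strains, but by small amounts. In the F test over the 8 strains, 41 of the 43 members and all 5 immunoproteasome genes were called, against 89.8% of all genes tested. The 2 members not called were the alpha subunit Psma4 (edgeR adjusted p = 0.471) and the beta subunit Psmb2 (edgeR adjusted p = 0.501). The gap in mean log2 CPM between the highest and the lowest strain had a median of 0.41 over the 43 members and 1.09 over the 5 immunoproteasome genes, against 0.97 over all genes. Among the 9447 genes that averaged 5 CPM or more, the median gap was 0.67. Strain accounted for a median of 40.6% of the variance of log2 CPM in the 43 members and 55.2% in the immunoproteasome genes, against 49.3% in all genes.

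More members outside the immunoproteasome rose in WSB than in any other strain. There 27 of the 43 rose and 0 fell, against 22.6% of all genes that rose and 22.4% that fell. The median log2 fold change was 0.19. Called members made up 5 of 8 alpha, 5 of 7 beta, 5 of 6 ATPase and 9 of 11 non-ATPase genes. The sum over the 32 core and cap genes was 2212 to 2641 CPM in WSB, with a median of 2413 CPM. In the other strains, with Cast 5 and 6 set aside, it was 1719.8 to 2383 CPM, so the ranges overlapped. On this scale the WSB median lay above every one of those libraries. This order depends on the TMM scaling of the library sizes. The TMM factors were 0.874 to 0.990 in WSB and 1.11 in NZO 5, the highest of the libraries compared with WSB.

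The cap subunit Psmd6, which helps hold the lid of the 19S cap together, was at 64.2, 67.04 and 77.8 CPM in WSB (lowest, median and highest of 8 libraries). Cast averaged 69.2 CPM, and the 6 other strains had means of 50.3 to 56.02 CPM. Its log2 fold change in WSB was 0.32 ± 0.05 (SE, edgeR adjusted p = 1.93e-07), and all 8 WSB libraries lay above the mean of the other strains. In B6 it was lower, at -0.21 (edgeR adjusted p = 0.00126).

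**Figure D1:**
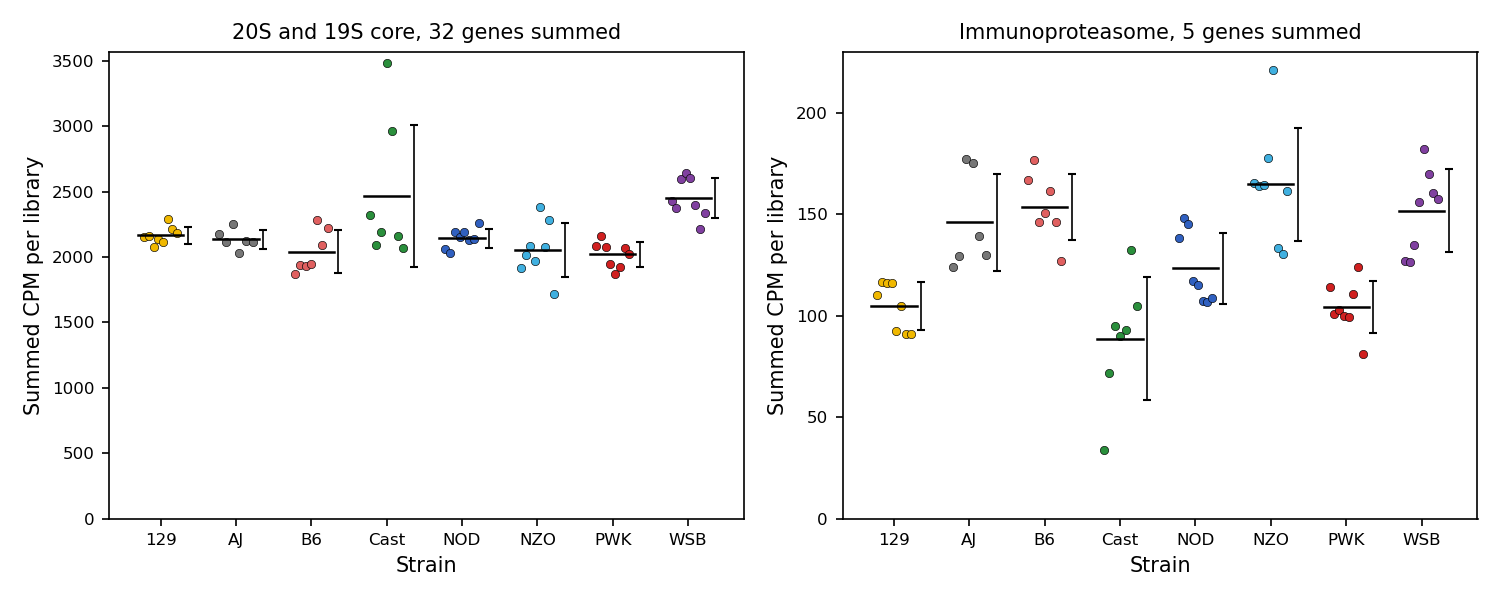
Summed CPM of the 32 genes of the 20S core and 19S cap (one panel) and of the 5 immunoproteasome genes (the other panel) in each of 60 libraries, by strain. Points are libraries, lines are strain means and bars are SDs. The core and cap sum was 2212 to 2641 CPM in WSB, and Cast 5 and 6 stood above every other library at 3483 and 2965 CPM.

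In Cast, 24 of 43 members rose and 2 fell, against 30.8% of all genes that rose and 28.8% that fell, and the median log2 fold change was 0.19. Without Cast 5 and 6, 8 members rose and 6 fell, against 25.4% and 24.7% of all genes, and the median was -0.02. Leaving out Cast 5 alone gave 15 higher. Of the 26 calls, 9 were made in both fits. They include the alpha subunit Psma3, the beta subunit Psmb1, the ATPase Psmc1 and the cap subunits Psmd4, Psmd6 and Psmd13, all higher in Cast. Without Cast 5 and 6, the alpha subunits Psma4, Psma5 and Psma6 and the beta subunit Psmb6 were called lower in Cast, by 0.19, 0.29, 0.19 and 0.25 on the log2 scale. WSB kept all 27 of its calls in that fit, which called 31 members higher there, against 23.8% of all genes, and 0 lower, against 23.4%.

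Psmd13, a subunit of the lid of the cap, had the largest log2 fold change of the core and cap genes called higher in Cast. It was at 48.3, 48.2, 53.7, 77.4, 80.1, 57.7 and 51.8 CPM in Cast libraries 1, 2, 3, 5, 6, 7 and 8, and strain means elsewhere were 38.2 to 50.2 CPM. All 7 Cast libraries lay above the mean of the other strains, and libraries 5 and 6 were the highest. The log2 fold change was 0.53 ± 0.07 (SE, edgeR adjusted p = 1.89e-09) with all libraries and 0.33 without these 2 (edgeR adjusted p = 3.1e-05). Psmd13 overlaps Sirt3 on the other strand, and the strand setting of the counting is not given in the sources used here, so reads could be shared.

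Psmd8 and Psmd12, also subunits of the lid, were called in Cast only with libraries 5 and 6 included. Psmd8 was at 214 and 141 CPM in those libraries and at 79.6 to 106 CPM in the other 5. Its log2 fold change was 0.48 with all libraries and 0.16 without them (edgeR adjusted p = 0.0575). For Psmd12 the values were 0.36 and 0.14 (edgeR adjusted p = 0.0691 without them). The ATPase Psmc1 was called in both fits, at 0.36 and 0.24. Psmc1 was lowest in NZO, at 52.6, 63.9 and 78.3 CPM, with a log2 fold change of -0.26 ± 0.06 (SE, edgeR adjusted p = 0.000327) and all 8 libraries below the mean of the other strains.

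In PWK, 17 of 43 members fell and 0 rose, against 22.7% of all genes that fell and 22.5% that rose, with a median log2 fold change of -0.10. The non-ATPase genes of the cap made up 7 of the 17. One of them, Psmd12, was at 46.4, 50.4 and 55.9 CPM in PWK, and strain means elsewhere were 54.4 to 74.1 CPM. Its log2 fold change was -0.26 (edgeR adjusted p = 0.00205), and every PWK library lay below the mean of the other strains.

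In B6, 13 members fell and 2 rose, against 14.7% of all genes that fell and 19.4% that rose, with a median of -0.12. Without B6 3, 8 fell, and the number that rose was 1 in 51 of the 60 fits that left out 1 library. In NZO, 8 fell (18.6%), near the 19.5% of all genes, and 3 rose (6.98%), against 26.7%, with a median of -0.08. The number that fell in NZO was 18 without NZO 5, and over the fits that left out 1 library it ranged 7 to 18, with over 1.5 times the 8 in 20 of them. The beta subunits Psmb1, Psmb3, Psmb4 and Psmb5 were among the 8 that fell in NZO. This strain also held 5 of the 6 libraries with over 9% of reads on 18S ribosomal RNA, and without those 6 libraries 5 of the 43 members were called in NZO. That fit lacked 5 of the 8 NZO libraries, which lowers its power. The median log2 fold change of the members in NZO was -0.084 in it, against -0.076 with all libraries. Of 7 hepatocyte markers, 5 fell in NZO and 0 rose, against 19.5% and 26.7% of all genes. Their median log2 fold change was -0.43. Their sum in NZO was 21958 to 91827 CPM, with a median of 69488 CPM. The medians of the other strains ran from 61211 CPM in Cast to 111574 CPM in AJ. The part of the hepatocyte markers in the levels of the members was not tested.

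Few members were called in the remaining strains. In strain-129, 3 of 43 rose and 1 fell, against 13.7% and 10.9% of all genes. In AJ, 2 rose and 1 fell, against 13.1% and 11.0%, and with DESeq2-type size factors 2 rose and 4 fell. In NOD, 4 rose and 1 fell, against 16.7% and 11.6%, and with those size factors 4 rose and 2 fell. Some calls belong to Psma8 and Psme2b, which were near 0 in at least 1 strain. Without these genes, the numbers of the 41 others higher and lower were 1 and 1 in strain-129, 0 and 1 in AJ, 1 and 13 in B6, 24 and 1 in Cast, 3 and 1 in NOD, 1 and 8 in NZO, 0 and 16 in PWK and 25 and 0 in WSB.

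**Figure D2:**
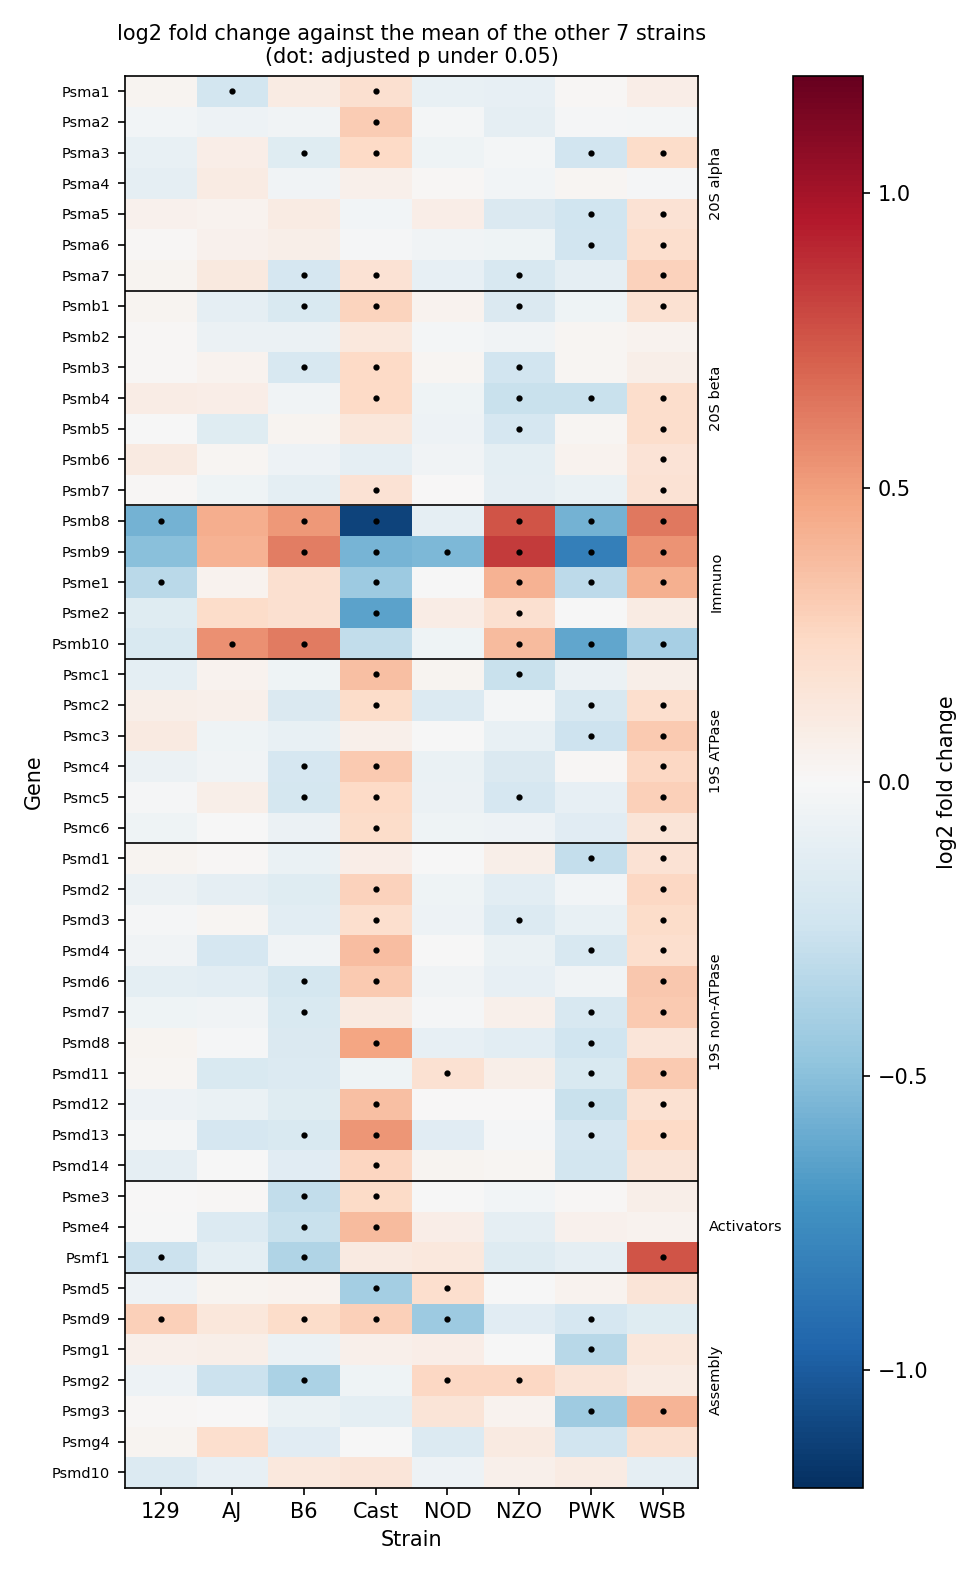
Log2 fold change of each strain against the mean of the other 7 strains for 46 of the 49 members, grouped by their place in the proteasome; a dot marks an adjusted p under 0.05. Psma8, Psme2b and Psmc3ip are not drawn because they were near 0 in at least 1 strain. WSB is higher over most of the core and cap, and the largest change is that of Psmb8 in Cast, at -1.11.

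Psmb2, Psma4 and Psmd10 had the smallest gaps between strains. Psmb2, a beta subunit without a catalytic site, had strain means of 38.7 to 43.6 CPM and a gap of 0.14 in mean log2 CPM, and 0 of the 28 pairs of strains were called, against 37.5% of the tests of all genes over these pairs. Psma4 had means of 68.5 to 77.7 CPM and 0 called pairs. Psmd10, known as gankyrin, a chaperone of the ATPase ring, had means of 6.38 to 7.68 CPM and a gap of 0.24. It was called in none of the 8 strain contrasts, and 4 pairs of strains were called.

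Psmf1 had the widest gap between strains among the 40 members outside the immunoproteasome with at least 5 CPM. It lies at chr2:151715812-151744186 (GRCm38) and encodes PI31, a protein that binds the 20S core and was first described as its inhibitor. It was at 39.99, 46.1 and 59.7 CPM in WSB, and the other strains had means of 24.5 to 32.8 CPM. Only NZO 5, at 40.9 CPM, reached the lowest WSB library. In WSB the log2 fold change was 0.76 ± 0.06 (SE, edgeR adjusted p = 1.01e-14), and WSB stood above NOD, the next strain, by 0.55 (edgeR adjusted p = 1.88e-06), a pair in which 35.6% of all genes were called. Psmf1 was lowest in B6, at 22.7, 24.2 and 27.7 CPM, with a log2 fold change of -0.36 (edgeR adjusted p = 0.000142), and in strain-129 it was -0.26. Strain accounted for 75.1% of its variance.

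Psme4 encodes PA200, a single-chain activator that caps the 20S core. It was at 139.9, 198 and 213 CPM in Cast, and the other strains had means of 125 to 154 CPM. This was a log2 fold change of 0.38 ± 0.08 (SE, edgeR adjusted p = 3.13e-05) and 0.30 without Cast 5 and 6, with 6 of 7 Cast libraries above the mean of the other strains. In B6 it was at 92.00, 124 and 149 CPM, with a log2 fold change of -0.26 (edgeR adjusted p = 0.00878). Psme3, the nuclear activator PA28-gamma, had log2 fold changes of 0.23 in Cast and -0.29 in B6, both called. In Cast it was at 0.06 without libraries 5 and 6 (edgeR adjusted p = 0.498).

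The assembly factors comprise Psmg1 to Psmg4, chaperones of the alpha ring, and Psmd5, Psmd9 and Psmd10, chaperones of the ATPase ring. Psmg3 was at 8.57, 10.02 and 11.1 CPM in WSB and at 4.98, 5.95 and 7.06 CPM in PWK, and these strains did not overlap. In WSB the log2 fold change was 0.41 ± 0.07 (SE, edgeR adjusted p = 3.55e-06), and in PWK it was -0.43 ± 0.08 (SE, edgeR adjusted p = 4.81e-06). Psmg1 fell in PWK by 0.33 on the log2 scale, at 7.89, 9.65 and 11.9 CPM, and the other strains had means of 11.3 to 12.8 CPM. Psmg2 fell in B6 by 0.38, at 6.21, 7.42 and 8.14 CPM. It rose in NOD (0.25) and in NZO (0.25), and both calls ended when some libraries were left out. Psmg4 was called in no strain contrast and in 2 of 28 pairs.

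Psmd9 was at 15.4, 19.5 and 22.9 CPM in NOD, and the other strains had means of 22.2 to 29.9 CPM. Its log2 fold change in NOD was -0.44 ± 0.09 (SE, edgeR adjusted p = 8.77e-05), with all 8 libraries below the mean of the others. The gene overlaps Hpd, an abundant hepatocyte gene on the other strand, so its counts are uncertain. Calls of Psmd9 in strain-129, B6, Cast and PWK were each ended by leaving out 1 library or by another alternative. Psmd5 was at 16.2, 20.2 and 31.1 CPM in Cast, and the other strains had means of 26.6 to 31.2 CPM. Its log2 fold change was -0.41 ± 0.08 (SE, edgeR adjusted p = 9.62e-06) and -0.59 without Cast 5 and 6, which at 31.1 and 24.9 CPM were the highest Cast libraries.

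**Figure D3:**
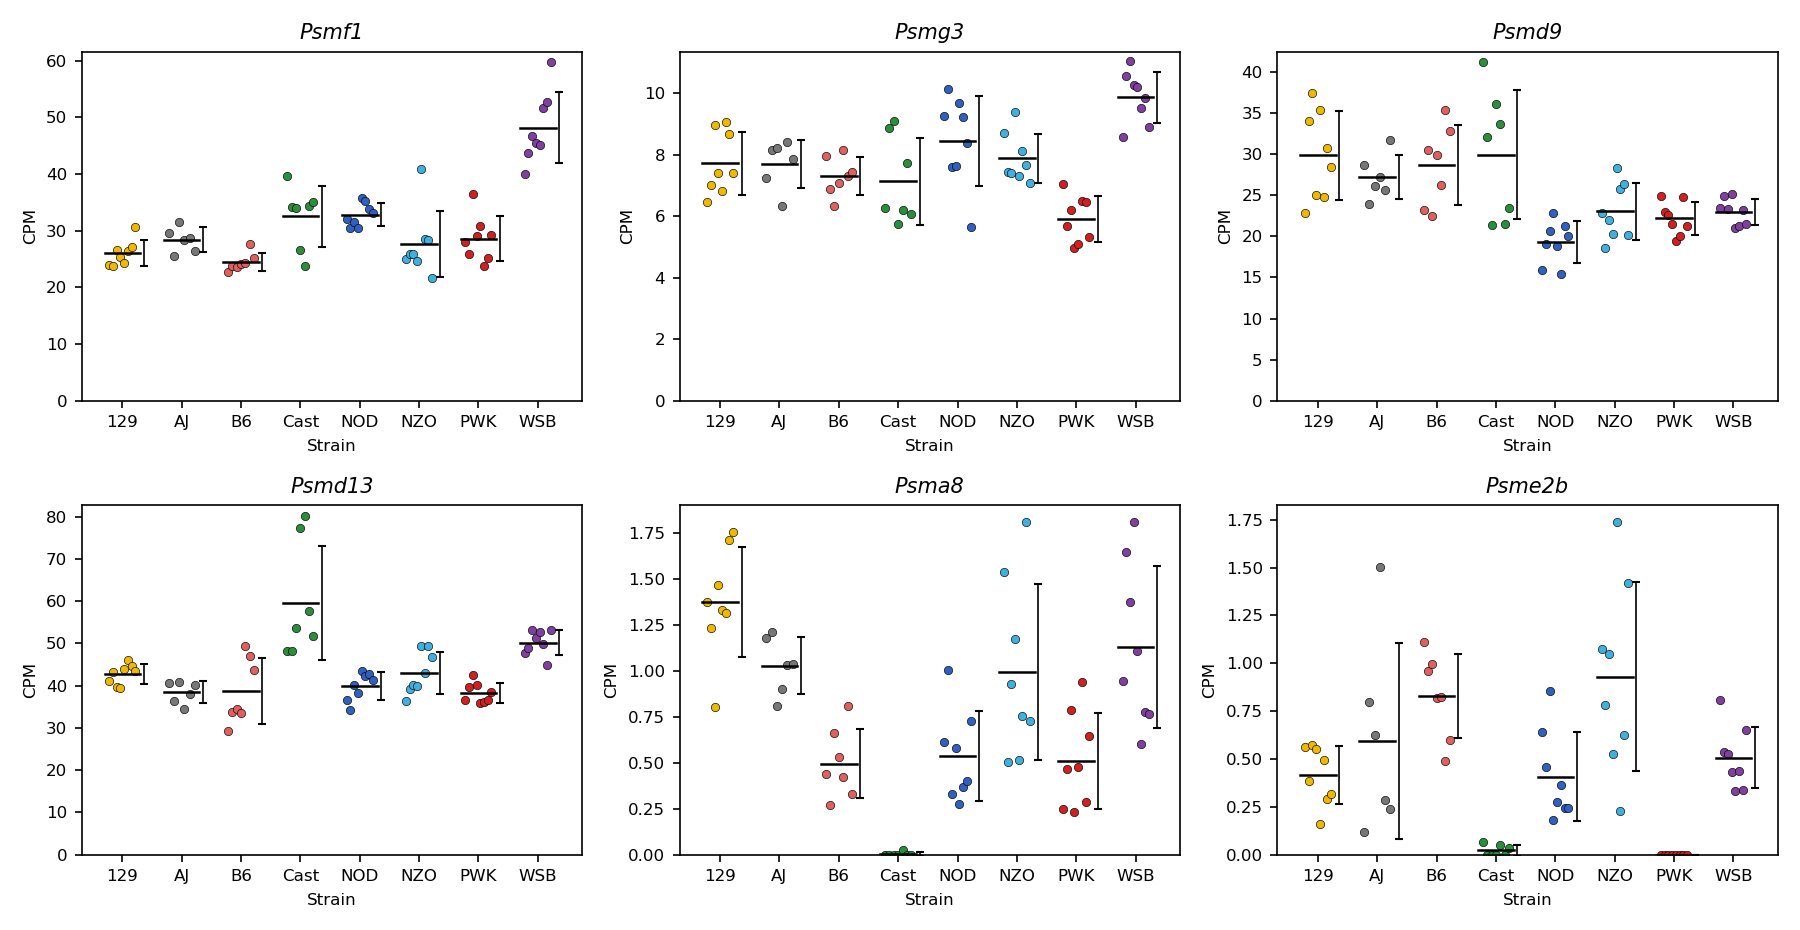
CPM of Psmf1, Psmg3, Psmd9, Psmd13, Psma8 and Psme2b in each library by strain, with strain means (lines) and SDs (bars). Psmf1 was at 39.99 to 59.7 CPM in WSB, Psmg3 was lowest in PWK, Psmd9 lowest in NOD and Psmd13 highest in Cast, while Psma8 was near 0 in Cast and Psme2b near 0 in Cast and PWK.

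Low members were near 0 in some strains or present mainly in one, and they were singled out after their values were seen. Psma8, an alpha subunit known from the proteasome of male germ cells, had 1 read in the 7 Cast libraries together, and each other strain had 102 to 355 reads. Its level was 1.38 ± 0.298 CPM in strain-129 (SD, n = 8), 1.13 ± 0.441 CPM in WSB (SD, n = 8) and 1.03 ± 0.155 CPM in AJ (SD, n = 6). Psme2b, a copy of Psme2, had 0 reads in the 8 PWK libraries, where 3 reads, the limit that a count of 0 allows, would be 0.0128 CPM over the group. It had 5 reads in the 7 Cast libraries, and each other strain had 102 to 262 reads. It shares a stretch of 794 bases with Psme2 at 95% identity or more, so its reads are uncertain. Of the 49 members, 15 share a stretch of at least 300 bases with another gene at that identity. They include Psme2, Psmb5 (796 bases) and Psmc1 (1306 bases), so reads of such members could also be shared. Psmc3ip was at 2.96, 3.73 and 4.52 CPM in NOD, and the other strains had means of 0.202 to 0.320 CPM. No library of another strain reached the lowest NOD library. Psmc3ip overlaps Mlx on the other strand.

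The immunoproteasome genes varied in another order of strains. All 5 rose in NZO, against 26.7% of all genes, and 3 rose in B6 (Psmb8, Psmb9 and Psmb10), against 19.4%, with 0 called lower in either. The rise of Psme2 in NZO was small (0.20, edgeR adjusted p = 0.0302), and its call was ended by each of 7 single libraries when left out and by leaving out the 6 libraries of over 9% 18S ribosomal RNA. In WSB, Psmb8, Psmb9 and Psme1 rose, against 22.6% of all genes, and Psmb10 fell, against 22.4%. In AJ Psmb10 rose, against 13.1%. In Cast 4 fell (Psmb8, Psmb9, Psme1 and Psme2), against 28.8%, and in PWK 4 fell (Psmb8, Psmb9, Psmb10 and Psme1), against 22.7%. In strain-129 Psmb8 and Psme1 fell, against 10.9%, and in NOD Psmb9 fell, against 11.6%. Over the 28 pairs of strains, 68 of 140 comparisons of the 5 genes were called, against 37.5% of the tests of all genes over the same pairs.

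Psmb8 lies at chr17:34197721-34201454 (GRCm38). It was at 18.8, 30.7 and 46.1 CPM in NZO, 25.00, 27.5 and 33.5 CPM in WSB, 20.5, 26.05 and 34.7 CPM in B6 and 18.7, 22.1 and 36.5 CPM in AJ (lowest, median and highest). It was at 12.5, 17.6 and 27.04 CPM in NOD, 10.3, 14.2 and 18.01 CPM in strain-129, 6.52, 12.8 and 19.2 CPM in PWK and 2.86, 10.04 and 19.7 CPM in Cast. Every library of NZO, WSB, B6 and AJ lay above every strain-129 library, while PWK and Cast reached into the range of NZO and AJ. The log2 fold change was 0.76 ± 0.16 in NZO (SE, edgeR adjusted p = 9.15e-05), 0.63 ± 0.16 in WSB (SE, edgeR adjusted p = 0.00118) and 0.52 ± 0.17 in B6 (SE, edgeR adjusted p = 0.0145).

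In the strains where Psmb8 fell, its log2 fold change was -0.56 in strain-129, -0.57 in PWK and -1.11 ± 0.20 in Cast (SE, edgeR adjusted p = 4.2e-06). It was -1.14 in Cast without libraries 5 and 6. No strain was called different from its neighbour in the order of means, whereas Cast was below NZO by 1.63 ± 0.24 on the log2 scale (SE, edgeR adjusted p = 7.46e-08), a pair in which 59.0% of all genes were called. The Psmb8 window printed above, from the reference genome alone, holds the gamma-activated site match. The part of this site in the strain differences was not tested.

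Psmb9 lies beside Psmb8, at chr17:34181988-34187764, and overlaps Tap1 on the other strand. It was at 10.97, 15.6 and 21.5 CPM in NZO, and it averaged 13.5 ± 3.10 CPM in B6 (SD, n = 7) and 12.9 ± 3.25 CPM in WSB (SD, n = 8). In PWK it was at 2.82, 5.84 and 7.72 CPM, and every NZO library lay above every PWK library. Against the mean of the other strains, the log2 fold change was 0.84 ± 0.19 in NZO (SE, edgeR adjusted p = 0.00019) and -0.82 ± 0.22 in PWK (SE, edgeR adjusted p = 0.00137). In Cast, at 0.865, 5.60 and 14.6 CPM, it was -0.56, and without libraries 5 and 6 it was -0.45 (edgeR adjusted p = 0.147). The call in NOD (-0.54, edgeR adjusted p = 0.047) was ended by each of 11 single libraries when left out.

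Psmb10, at chr8:105935728-105938392, fell in WSB, where Psmb8 and Psmb9 rose. It was at 8.04, 9.31 and 15.6 CPM in WSB, while it averaged 18.7 ± 4.93 CPM in B6 (SD, n = 7), 17.8 ± 3.08 CPM in AJ (SD, n = 6) and 16.1 ± 4.47 CPM in NZO (SD, n = 8). The log2 fold change in WSB was -0.39 ± 0.16 (SE, edgeR adjusted p = 0.0337), a call ended by each of 6 single libraries when left out. It was 0.62 in B6 (edgeR adjusted p = 0.000836), 0.55 in AJ (edgeR adjusted p = 0.00865) and 0.38 in NZO (edgeR adjusted p = 0.0272), and the call in NZO was ended by each of 4 libraries. Psmb10 was lowest in PWK, at 5.57, 7.97 and 12.3 CPM, with a log2 fold change of -0.62 (edgeR adjusted p = 0.000911). Its level split by Xist in 4 of 8 strains, B6 and PWK among them, with values given under the other observations. The means above pool both kinds of library, and AJ had 4 of high and 2 of low Xist. Adding Xist as a covariate ended none of these Psmb10 calls.

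The PA28 genes Psme1 and Psme2 spanned smaller gaps between strains. Psme1 was at 43.9, 63.3 and 75.8 CPM in WSB and 50.1, 60.5 and 76.9 CPM in NZO, with log2 fold changes of 0.42 and 0.41 (edgeR adjusted p = 0.000239 and 0.000294). In Cast it was at 13.9, 38.01 and 52.3 CPM, with a log2 fold change of -0.43 (edgeR adjusted p = 0.000554) and -0.45 without libraries 5 and 6. Psme2 was at 11.8, 26.01 and 32.9 CPM in Cast, and the other strains had means of 33.9 to 42.5 CPM. All 7 Cast libraries lay below the mean of the other strains. The log2 fold change of Psme2 in Cast was -0.64 ± 0.09 (SE, edgeR adjusted p = 7.48e-09) and -0.66 without libraries 5 and 6. Cast was also called against strain-129, the next strain above it (strain-129 minus Cast, 0.43, edgeR adjusted p = 0.000577), a pair in which 51.5% of all genes were called.

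**Figure D4:**
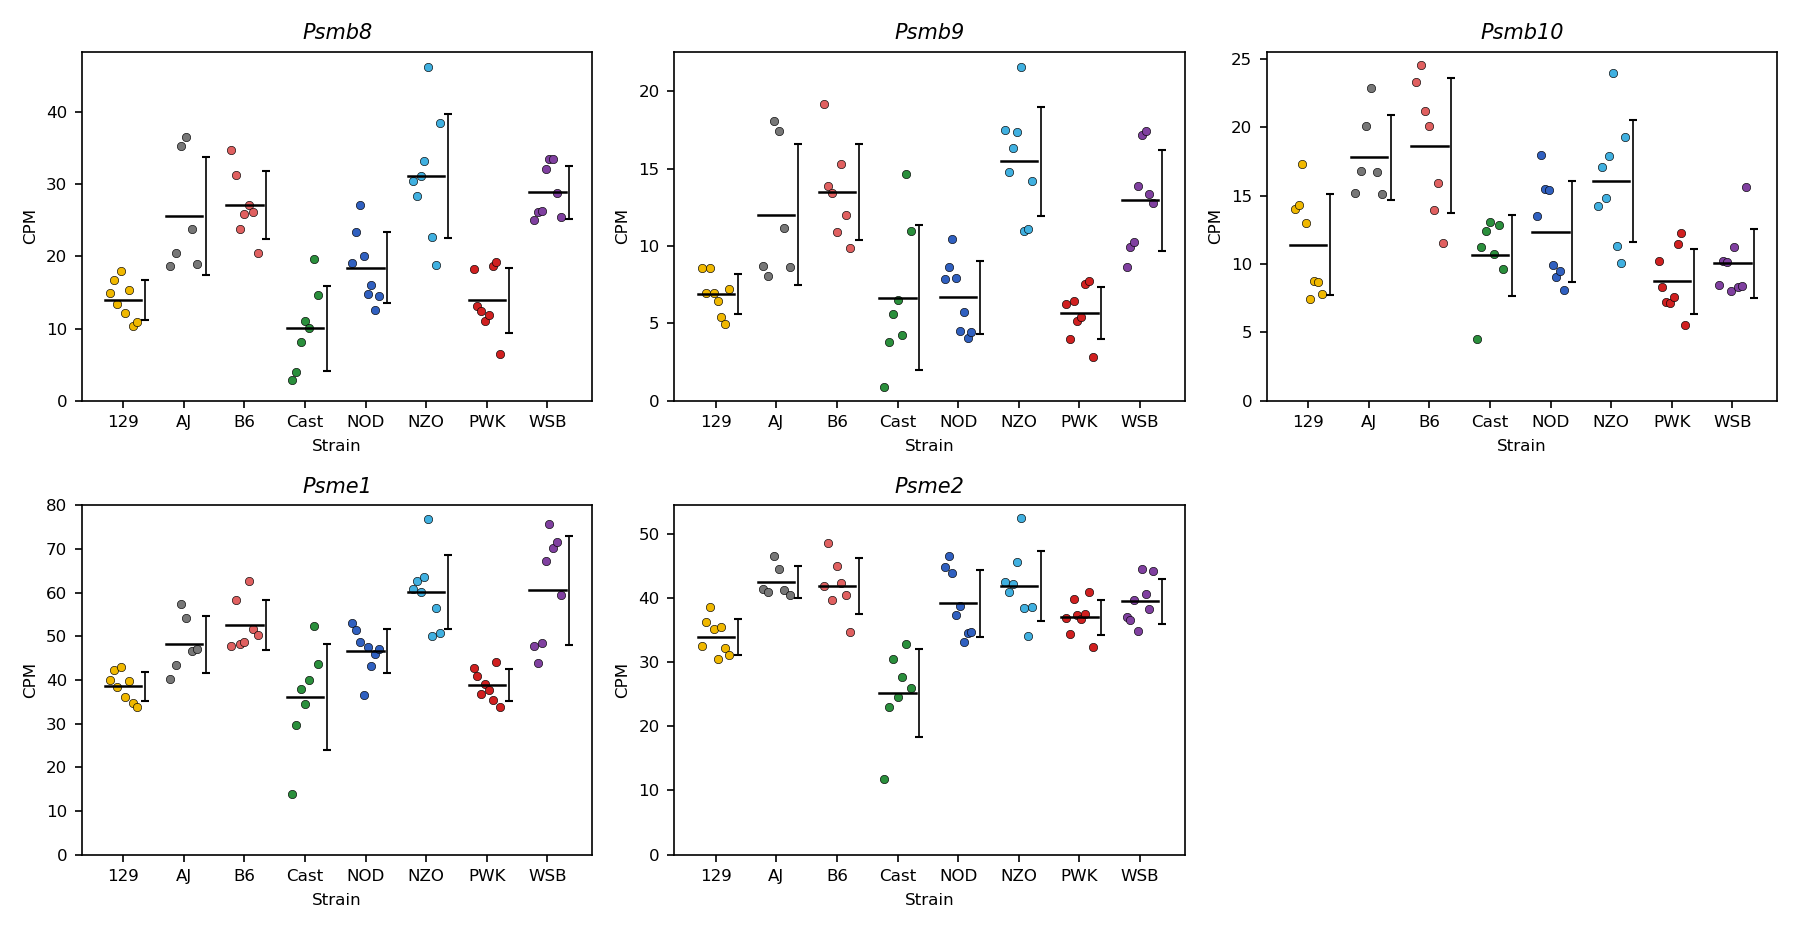
CPM of the 5 immunoproteasome genes in each of 60 libraries by strain, with strain means (lines) and SDs (bars). Psmb8 and Psmb9 averaged highest in NZO, Psmb10 averaged highest in B6 and was low in WSB, and Psme2 was lowest in Cast, where library 1 was the lowest of the strain for all 5 genes.

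The ratio of an inducible gene to the constitutive gene it replaces does not depend on library scaling. The percentages do depend on the exon lengths used, by 1 factor per gene pair that is the same in every strain. Psmb5 shares a stretch of 796 bases with another gene at 95% identity or more, so its reads are uncertain. Per kilobase of exon, Psmb8 came to 20.7% of Psmb5 in NZO, 16.2% in AJ, 16.02% in B6, 15.3% in WSB, 11.2% in NOD, 8.36% in strain-129, 7.92% in PWK and 4.77% in Cast. The log2 ratio of CPM was -2.48 ± 0.83 in Cast (SD, n = 7) and -0.36 ± 0.45 in NZO (SD, n = 8), and these strains did not overlap (exact two-sided permutation test, p = 0.00131 after adjustment over 84 comparisons). Without Cast 5 and 6 the Cast mean was -2.48 ± 1.02 (SD, n = 5; exact permutation test against NZO, adjusted p = 0.00326). In WSB the 8 libraries spanned -1.01 to -0.62. Psmb9 came to 13.5% of Psmb6 in NZO and 4.42% in PWK per kilobase (exact permutation test, adjusted p = 0.00131). Psmb10 came to 47.6% of Psmb7 in B6 and 21.7% in WSB (exact permutation test, adjusted p = 0.00280). Before the division by exon length, Psmb8 came to 77.7% of Psmb5 in NZO and 17.96% in Cast, Psmb9 to 26.4% of Psmb6 in NZO and 8.63% in PWK, and Psmb10 to 23.7% of Psmb7 in B6 and 10.8% in WSB. Of 28 pairs of strains, 17 were called in the ratio of Psmb8 to Psmb5, 16 in that of Psmb9 to Psmb6 and 13 in that of Psmb10 to Psmb7, and without Cast 5 and 6 these numbers were 16, 14 and 13. With 8 libraries against 8, the smallest p this exact test can give is 0.0001554 before adjustment.

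**Figure D5:**
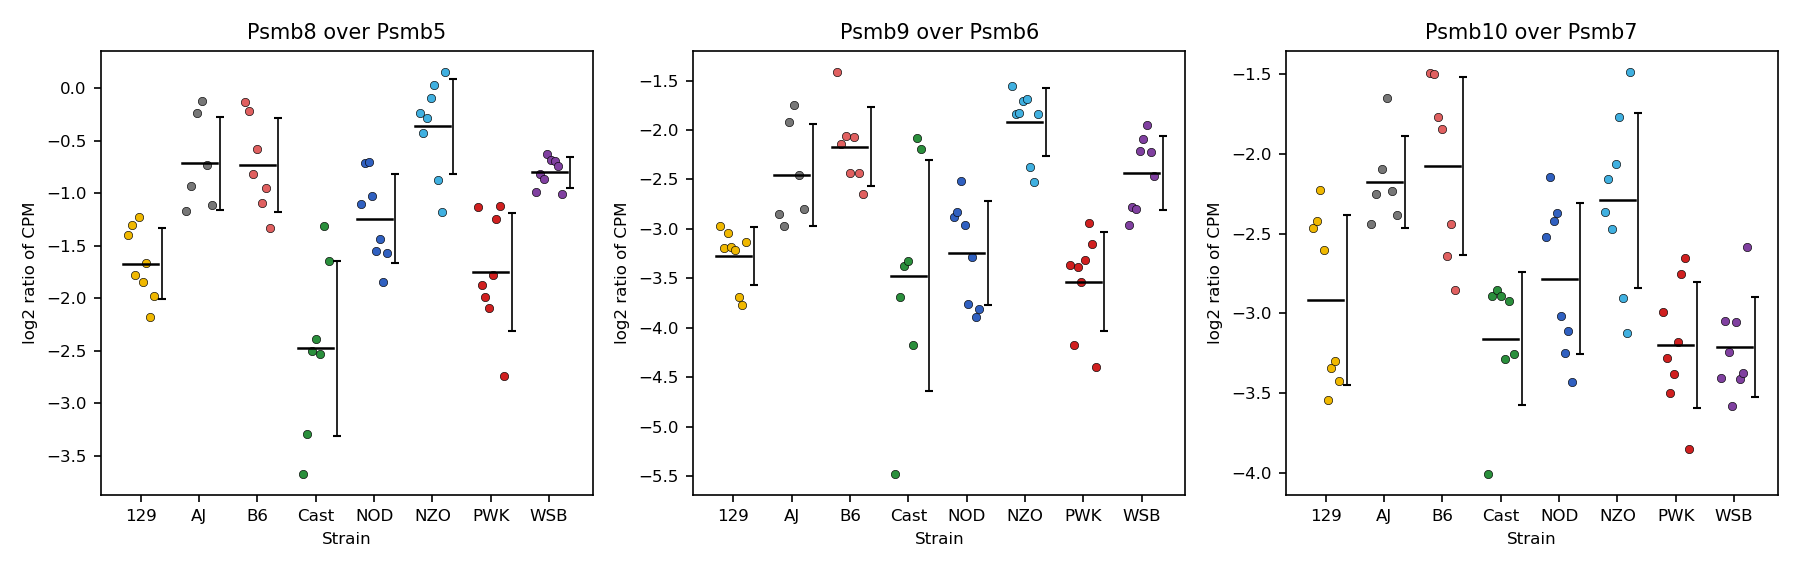
Log2 ratio of CPM of each inducible catalytic gene to the constitutive gene it replaces, by library and strain, with means (lines) and SDs (bars). Psmb8 over Psmb5 averaged highest in NZO and lowest in Cast, and Psmb10 over Psmb7 averaged highest in B6 and was low in WSB, PWK and Cast.

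Markers of immune cells moved with this pattern in some strains and not in others. Of 10 Kupffer cell and macrophage markers, 10 rose in B6 and 8 in NZO, against 19.4% and 26.7% of all genes, with 0 lower in either. In Cast 9 fell and 1 rose, against 28.8% and 30.8% of all genes. Without Cast 5 and 6, 5 fell and 0 rose, against 24.7% and 25.4%. In WSB 5 fell and 0 rose, against 22.4% and 22.6%. The sum of these markers was 327 to 849.7 CPM in B6, 252 to 1035 CPM in NZO, 102 to 266 CPM in Cast and 152 to 360.1 CPM in WSB. Of 12 lymphocyte markers, 11 rose and 0 fell in B6, and 9 rose and 1 fell in NZO, against the same shares of all genes. In Cast 9 fell and 0 rose (6 and 1 without Cast 5 and 6), and in WSB 7 fell and 1 rose. The shares of all genes are those given above for these strains. The sum of the lymphocyte markers was 16.6 to 47.9 CPM in B6, 15.8 to 109.9 CPM in NZO, 5.15 to 15.5 CPM in Cast and 8.64 to 14.5 CPM in WSB. In WSB, where Psmb8, Psmb9 and Psme1 rose, the sums had medians of 229 CPM (Kupffer cell and macrophage) and 12.6 CPM (lymphocyte). The medians of the other strains ran from 213 CPM in Cast to 603 CPM in B6 and from 8.81 CPM in Cast to 33.7 CPM in B6. In PWK, where 4 of the 5 immunoproteasome genes fell, 3 Kupffer cell and macrophage markers fell and 1 rose. The shares of all genes there were 22.7% and 22.5%, and the markers summed to 182 to 444 CPM in PWK. Of the lymphocyte markers 0 fell and 1 rose there, with a median log2 fold change of 0.006 and a sum of 11.3 to 24.4 CPM in PWK. In AJ, strain-129 and NOD, 1, 1 and 0 Kupffer cell and macrophage markers rose and 0, 3 and 1 fell, with sums of 246 to 527 CPM in AJ, 172 to 392 CPM in strain-129 and 168 to 401 CPM in NOD. The shares of all genes were 13.1%, 13.7% and 16.7% higher and 11.0%, 10.9% and 11.6% lower. Lymphocyte markers rose in number 2, 1 and 1 and fell in number 0, 0 and 0 in these strains, with sums of 13.03 to 32.5 CPM in AJ, 9.64 to 21.7 CPM in strain-129 and 12.4 to 21.5 CPM in NOD. The part of these cells in the immunoproteasome levels was not tested.

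Of 13 genes of class I loading and its control, 10 fell and 2 rose in Cast, against 28.8% and 30.8% of all genes. Without Cast 5 and 6, 11 fell and 0 rose, against 24.7% and 25.4%. In NZO 7 rose, against 26.7%, in B6 6, against 19.4%, in AJ 6, against 13.1%, and in WSB 5, against 22.6%. The genes that fell numbered 3 in NZO, 3 in WSB and 3 in PWK, each 23.1% of the list, near the 19.5%, 22.4% and 22.7% of all genes. In PWK 1 rose, against 22.5% of all genes. In NOD 2 rose and 1 fell, against 16.7% and 11.6%. In strain-129 0 rose and 3 fell (23.1%), against 13.7% and 10.9%. In B6 1 fell, against 14.7%, and in AJ 0 fell, against 11.0%. Tap1 and Tap2 encode the subunits of the peptide transporter. Tap1 averaged 33.4 ± 5.44 CPM in B6 (SD, n = 7) and 25.6 ± 5.96 CPM in WSB (SD, n = 8), and Tap2 averaged 25.2 ± 5.16 CPM in B6 and 44.8 ± 3.68 CPM in WSB. The log2 fold changes of Tap1 and Tap2 were 0.92 and -0.36 in B6 and 0.48 and 0.59 in WSB, all called. Both rose in NZO (0.55 and 0.47) and both fell in Cast (-0.85 and -0.54).

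Transcription factors that act on the inducible genes also differed between strains. Nlrc5, an activator of class I genes, was at 24.02, 26.99 and 32.4 CPM in B6 and at 3.53, 6.23 and 11.6 CPM in Cast, with log2 fold changes of 0.88 and -1.45. In WSB it averaged 16.3 ± 2.02 CPM (SD, n = 8) and was not called (edgeR adjusted p = 0.993). Irf1, an interferon-response factor, had log2 fold changes of 0.68 in B6 and -1.39 in Cast, and in WSB it was at 0.28 and not called (edgeR adjusted p = 0.108). Nlrc5 was also called in AJ (0.80), NZO (0.41) and strain-129 (-0.45), and Irf1 in AJ (0.48) and NZO (0.42). Among these further calls, only that of Nlrc5 in AJ was ended by no alternative tried.

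Of 28 partners of the proteasome, 11 rose and 2 fell in WSB (39.3% and 7.14%), against 22.6% and 22.4% of all genes. In Cast 9 rose (32.1%), near the 30.8% of all genes, and 5 fell, against 28.8%. Without Cast 5 and 6, 4 rose and 6 fell, against 25.4% and 24.7%. In PWK 6 fell (21.4%), near the 22.7% of all genes, and 4 rose, against 22.5%. In NZO 5 rose (17.9%, against 26.7%) and 4 fell, against 19.5%. In B6 5 rose and 5 fell (17.9% each, against 19.4% and 14.7%). In AJ 2 rose, against 13.1%, and 6 fell (21.4%, against 11.0%). In strain-129 2 rose and 3 fell, against 13.7% and 10.9%. In NOD 0 rose, against 16.7%, and 5 fell (17.9%, against 11.6%). Pomp, the maturation factor of the 20S core, was at 68.3, 75.2 and 81.8 CPM in WSB, where its log2 fold change was 0.24 ± 0.06 (SE, edgeR adjusted p = 0.000335), and in Cast it was -0.16. Ubb, a polyubiquitin gene, was at 207, 261 and 287 CPM in PWK, and the other strains had means of 330.0 to 564 CPM. Its log2 fold change was -0.82 ± 0.07 in PWK (SE, edgeR adjusted p = 9.87e-15), 0.49 in Cast and 0.41 in WSB. Zfand2a, a stress-induced protein that binds the 19S cap, rose in WSB (0.73) and Cast (0.72) and fell in strain-129 (-0.54). Hspa4l, a heat-shock protein, rose in WSB (0.81) and fell in AJ (-0.79) and Cast (-0.69). Ubqln4, a shuttle for ubiquitin-tagged proteins, rose in PWK (0.68).

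Nfe2l1 encodes NRF1, the factor that raises proteasome genes when proteasome activity falls short. It was at 72.4, 90.7 and 133 CPM in Cast, 81.4, 102 and 130.0 CPM in PWK and 123, 150.1 and 197 CPM in WSB. On the log2 scale it differed by -0.50 in Cast (edgeR adjusted p = 3.63e-06) and -0.40 in PWK (edgeR adjusted p = 7.09e-05). It was called higher in NZO (0.23, edgeR adjusted p = 0.015), B6 (0.22, edgeR adjusted p = 0.0374) and WSB (0.19, edgeR adjusted p = 0.0413). The WSB call ended without Cast 5 and 6, with DESeq2, with the deposited variance-stabilised values and without each of 4 single libraries. The NZO and B6 calls ended without the 6 libraries of over 9% 18S ribosomal RNA. The B6 call was also ended by each of 26 single libraries when left out. In Cast 5 and 6 Nfe2l1 was at 73.3 and 90.7 CPM, within the range of the other 5 (72.4 to 133 CPM). Hspa4l, at 33.6 and 29.6 CPM there, lay above the other 5 (15.4 to 20.7 CPM). So did Vcp, an unfoldase that hands proteins to the proteasome, at 608 and 462 CPM, against 329 to 393 CPM. These genes are examples from the lists, and what set these libraries apart was not tested. Nfe2l2, the related factor NRF2, rose in NZO (0.58) and fell in Cast (-0.46). Without Cast 5 and 6, the Cast calls of Tap1, Tap2, Nlrc5, Irf1, Pomp, Ubb, Zfand2a, Hspa4l, Nfe2l1 and Nfe2l2 were also made. Zfand2a then stood at 0.40, Ubb at 0.38, Hspa4l at -0.98 and Nfe2l1 at -0.40 on the log2 scale.

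Members of the constitutive particle moved together from library to library within strains. After strain means were removed, the median Pearson r over 465 pairs of core and cap genes of at least 5 CPM was 0.66 across 60 libraries, and 0.48 across 58 without Cast 5 and 6. The 10 pairs of immunoproteasome genes had a median r of 0.74 with and without those libraries. Pairs of a core or cap gene with an immunoproteasome gene had a median of 0.01, pairs of assembly factors 0.03, and all genes of at least 5 CPM 0.003. These values are descriptions, since all pairs share libraries, depth and scaling.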

How the data were processed

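Liver polyA RNA of 60 libraries from 8 strains was analysed; 61 samples are labelled, B6 5 had no matching column, and 1 column that matched no sample was not used. The deposited table holds estimated counts per gene (20.1% of values are not whole), and a second deposited table holds variance-stabilised log2 values made by the authors. Per the submitters' processing notes, GRCm38 and DESeq2 were used. Not given in the sources used here: aligner, counter, annotation, strand setting and any use of strain genomes. GRCm38 is the genome of C57BL/6J, so reads of other strains may map less well.

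Estimated counts, where counts had been planned for, were rounded, filtered with filterByExpr, scaled by TMM and tested with edgeR 4.0.16 (R 4.3.3) in 1 model over all strains: an F test among strains, 8 contrasts and 28 pairs. P-values were adjusted by Benjamini-Hochberg over 16165 genes within each contrast. CPM used TMM library sizes, and log2 CPM a prior count of 2. Levels per kilobase used exon lengths of GENCODE vM21. Ratios were tested by exact permutation. The scripts were tested on simulated data. Members and lists were chosen with earlier results of these data known. Named were the immunoproteasome genes, the 10 members with the largest and 3 with the smallest strain gap, and the strongest calls per strain (at most 3 in each direction, at least 0.3 on the log2 scale). Strain-129 stands for the strain labelled 129. 1 listed gene is not reported here.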

Additional observations from a re-analysis of the deposited data

Results flagged for a closer look

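Single libraries stood apart from the others of their strain in 7 of 184 groups looked at, where chance gives about 1 in 20. NZO 5 was the highest of 8 NZO libraries for Psmf1, at 40.9 CPM, with a group median of 25.9 CPM. WSB 6 was the highest WSB library for Psmd8, at 105 CPM, with a median of 95.8 CPM. NZO 8 was the lowest NZO library for Psmg1, at 8.44 CPM, with a median of 12.2 CPM. The other 4 belong to library 1 of Cast, the lowest of its strain at 13.9 CPM for Psme1, 11.8 CPM for Psme2, 4.53 CPM for Psmb10 and -4.01 for the log2 ratio of Psmb10 to Psmb7. The Cast medians were 38.01, 26.01 and 11.3 CPM and -2.92.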

How the results depend on the processing

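Of the calls of named genes in the strain contrasts, 85 were ended by no alternative tried, 35 by leaving out a single library and 27 by another alternative (some by both), and 0 changed sign. Among the 43 members outside the immunoproteasome, leaving out libraries 5 and 6 of Cast gave 14 calls in Cast in place of 26, 7 in strain-129 in place of 4 and 6 in AJ in place of 3. The AJ count was also 6 with DESeq2-type size factors, 6 with DESeq2 and 5 with Xist as a covariate. Without the 6 libraries of over 9% 18S ribosomal RNA the NZO count was 5 in place of 11, in a fit that lacked 5 of the 8 NZO libraries. Of the immunoproteasome genes, 2 in place of 1 were called in AJ when ribosomal RNA and mitochondrial genes were left out of the library sizes, and 2 without Cast 5 and 6. In NOD 0 in place of 1 were called without the libraries of over 9% 18S. The causes were not tested.

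Leaving out 1 library at a time, the calls among the 43 members ranged 3 to 5 in strain-129, 2 to 6 in AJ, 10 to 18 in B6, 18 to 31 in Cast, 2 to 6 in NOD, 10 to 21 in NZO, 13 to 18 in PWK and 22 to 30 in WSB. Those among the 5 immunoproteasome genes ranged 2 to 4 in strain-129, 0 to 3 in AJ, 1 to 4 in B6, 3 to 4 in Cast, 0 to 1 in NOD, 3 to 5 in NZO, 4 to 4 in PWK and 2 to 4 in WSB. Single libraries moved some counts by over 1.5 times. Among the 43 members, 21 were called in NZO without NZO 5 and 17 without Cast 2, 3, 2 and 3 in NOD without NOD 1, 5 and 6, and 5 or 6 in AJ without any 1 of 12 libraries. Of the immunoproteasome genes, 3 were called in NZO without NZO 2, 4 or 5, 2 in WSB without WSB 7, 1 in B6 without B6 1 and 4 in strain-129 without Cast 1. Counted by direction, the members called lower ranged 0 to 4 in AJ (38 of the fits over 1.5 times from 1), 1 to 2 in NOD and 1 to 2 in strain-129, and those higher in NOD 1 to 4. The labels do not say what a library's number marks. Over 181 pairs of libraries with the same number in different strains, the median correlation of deviations was 0.20 and 131 were over 0.1, against a median of -0.07 for other numbers, and 7 of 60 libraries correlated best with their own number. The number moved with Xist in large part: 8 of 8 libraries numbered 1 and 7 of 7 numbered 2 had high Xist, and 5 of 5 numbered 5 and 7 of 7 numbered 8 had low Xist. The other numbers were mixed. Libraries of high and low Xist were 7 and 1 at number 3, 6 and 1 at number 4 and 1 and 7 at number 6. They were 1 and 6 at number 7 and 1 and 2 at number 9. With the replicate block, 0 immunoproteasome genes in place of 1 were called in NOD.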

Other observations

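Psmb10 and Psme3 separated libraries with high and low Xist within several strains; the labels give no sex, the split was made on the Xist level after seeing the data, and no test was run on it. Psmb10 was higher in every high-Xist library than in every low-Xist library in 4 of 8 strains: 13.00 to 17.3 against 7.46 to 8.76 CPM in strain-129, 20.1 to 24.6 against 11.5 to 15.9 CPM in B6, 13.5 to 18.02 against 8.12 to 9.91 CPM in NOD and 8.33 to 12.3 against 5.57 to 7.60 CPM in PWK. The ranges overlapped in the other 4 strains. Psme3, the nuclear activator PA28-gamma, was lower in every high-Xist library in 6 of 8 strains, and Psmd8, Psmd13 and Psme4 each in 4 of 8. These genes were picked as the most separated of the 49 members. The share of all genes that separate in this way is not given, so these counts cannot be called unusual.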
